A study of Mus musculus with 16 samples.

Results

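A set of 10 genes known from fat cells and from the handling of lipids was followed in RNA-seq libraries of mouse footpad epidermal cells. They were Fabp4, Lpl, Cd36, Pparg, Plin4, Plin1, Cidec, Adipoq, Cfd and Retn, which are 10 of the 50600 genes in the count table. Fabp4 was chosen from its diet difference in these same libraries, so its values are described here without any test between groups. The other 9 genes were added as adipocyte and lipid genes with earlier results of these data known. The 16 libraries, 4 biological replicates in each of 4 groups, came from female C57/B6J mice, with 1 animal as the unit of replication according to the methods. From 5 wk of age the mice received for 3 wk a purified diet, labelled SYNTH and called AhR-poor diet here because it holds few ligands of the aryl hydrocarbon receptor (AhR), or the same diet with indole-3-carbinol at 200 ppm, a plant compound that yields AhR ligands (I3C diet). A footpad injection of 50 μl of PBS either held 50 μg of papain, an allergenic plant protease, or was PBS alone (vehicle), and epidermal cells were isolated after 6 hr. The groups were therefore I3C diet with vehicle, I3C diet with papain, AhR-poor diet with vehicle and AhR-poor diet with papain. Housing went by diet, so that diet and cage cannot be told apart. Library totals ran from 22500821 to 51844375 counts. Levels are given as CPM, counts scaled to library totals with TMM factors. The floor was set at 3 counts, which is 0.0569 to 0.130 CPM depending on the library. The floor covers counting error only, while the intervals below come from the standard errors of the model and so include the spread between libraries.

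Fat cells store triglyceride in a droplet coated with perilipins, and they take up fatty acids that lipoprotein lipase frees from circulating lipoproteins. The nuclear receptor PPARγ, bound to DNA together with RXR, drives much of this program and its own set of droplet, uptake and carrier genes. Several of the same genes work in other cells as well. PPARγ, droplet proteins and lipid synthesis are needed by sebaceous gland cells, Fabp4 and Cd36 are expressed by capillary endothelium and by macrophages, and adiponectin, adipsin and perilipin 1 are far more restricted to fat cells.

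By the GENCODE M21 annotation of GRCm38, Fabp4 lies at chr3:10204088-10208576, Lpl at chr8:68880491-68907448, Cd36 at chr5:17781690-17888801 and Pparg at chr6:115360951-115490399. Plin4 lies at chr17:56100591-56109803, Plin1 at chr7:79720218-79732903 and Cidec at chr6:113424634-113435760. Adipoq lies at chr16:23146536-23158028, Cfd at chr10:79890853-79892655 and Retn at chr8:3655770-3660110. All 10 are protein-coding. Plin4 shares 17 exonic bases with Hdgfl2 on the opposite strand, and the exons of the other 9 overlap no other gene.

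The bases before the start sites are shown for the 4 genes whose levels differed in the same direction between the diets and for which RefSeq windows (GRCm38.p6) were at hand, Cd36, Cidec, Plin4 and Pparg. For 8 of the 10 members 11 such windows were given, and Fabp4 and Lpl were not among them. The 250 bases before each start were searched on both strands for GCGTG, the core of the AhR response element, for AGGTCA, the half-site bound by nuclear receptors, and for AGGTCANAGGTCA, the spacing bound by PPARγ with RXR, with up to 2 mismatches. Half-sites can lie inside the longer motif. Capitals mark every match, and a match on the opposite strand appears as its reverse complement, so that AGGTCA reads TGACCT. The Cd36 window (chr5:17835897-17836146, minus strand) lies inside the gene as GENCODE draws it, and the Cidec window (chr6:113434765-113435014, minus strand) is the one of the inner of 2 starts. The Plin4 window (chr17:56109804-56110032, minus strand) stops where the annotated exon begins, after 229 bases, and the Pparg window (chr6:115421816-115422065, plus strand) precedes the innermost of 3 starts.
Cd36: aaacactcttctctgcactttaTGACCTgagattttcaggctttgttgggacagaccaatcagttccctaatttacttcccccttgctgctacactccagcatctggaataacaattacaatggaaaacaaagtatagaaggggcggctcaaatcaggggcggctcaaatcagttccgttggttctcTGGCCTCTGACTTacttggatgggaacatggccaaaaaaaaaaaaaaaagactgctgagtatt
Cidec: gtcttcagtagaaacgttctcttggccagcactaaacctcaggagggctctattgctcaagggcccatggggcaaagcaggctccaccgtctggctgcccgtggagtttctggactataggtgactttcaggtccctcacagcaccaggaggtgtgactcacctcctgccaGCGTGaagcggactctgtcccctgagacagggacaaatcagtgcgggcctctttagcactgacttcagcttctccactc
Plin4: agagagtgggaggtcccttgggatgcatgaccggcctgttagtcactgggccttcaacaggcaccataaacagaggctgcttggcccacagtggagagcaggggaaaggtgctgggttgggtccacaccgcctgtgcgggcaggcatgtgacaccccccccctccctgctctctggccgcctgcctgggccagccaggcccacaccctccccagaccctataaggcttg
Pparg: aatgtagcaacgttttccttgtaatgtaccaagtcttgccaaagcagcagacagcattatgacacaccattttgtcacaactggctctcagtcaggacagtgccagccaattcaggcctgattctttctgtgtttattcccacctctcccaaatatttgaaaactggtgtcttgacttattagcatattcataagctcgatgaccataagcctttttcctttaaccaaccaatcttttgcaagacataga

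The Cd36 window held 1 half-site and 1 match to the longer motif, on the minus strand of the window with 2 mismatches, starting 63 bases before the start site. The Cidec window held 1 GCGTG, 79 bases before its start. The Plin4 and Pparg windows printed held none of the motifs. The other windows of Pparg, which overlap its exons and are not printed, held 2 GCGTG and 1 AGGTCA before the outermost start and 1 AGGTCA before the next. The window before the outer start of Cidec held none. Over the 11 member windows, 2 held GCGTG, 3 held AGGTCA and 1 held the longer motif. Among all 32851 RefSeq windows of this length, 28.2% held GCGTG, 14.0% held AGGTCA and 3.24% held the longer motif. A match is a description of letters, and binding was not measured.

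The label of fat cells was checked first. Adipoq, the gene of adiponectin, had 6 counts over all 16 libraries, with a highest value of 2 counts. Plin1, whose protein coats the fat cell droplet and gates lipolysis, had 8 counts in all and at most 3 in a library. Cfd, which encodes adipsin, the complement factor D secreted by fat cells, had 5 counts in all, at 0 in the 8 libraries of the I3C diet and at 2 at most on the AhR-poor diet. All 3 were at or under the floor in every library, so no fold was computed, and they failed the minimum of 10 counts that admitted a gene to testing. Retn, the gene of resistin, another hormone of mouse fat cells, had 17 counts, of which 9 came from T105, an AhR-poor library with papain, and no other library exceeded 2. Of 12 further fat cell markers, Thrsp, Pck1 and Trarg1 also stayed at 3 counts or fewer in every library. The other 9 were tested, and the list summed to between 13.2 and 33.7 CPM in a library. Of these 9, 2 were called higher on the AhR-poor diet with vehicle and 3 with papain, beside 1.59% and 7.15% of all genes tested. Adipoq, Plin1 and Cfd were thus at or near 0, as were Thrsp, Pck1 and Trarg1. The other 9 markers of that list exceeded 3 counts in at least 1 library. The set is therefore called by its genes here. Keratinocyte markers stood at the other end, with the 6 basal markers summing to between 20713.9 and 36308.9 CPM in a library and the 6 suprabasal markers to between 18167.8 and 41539 CPM.

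**Figure D1:**
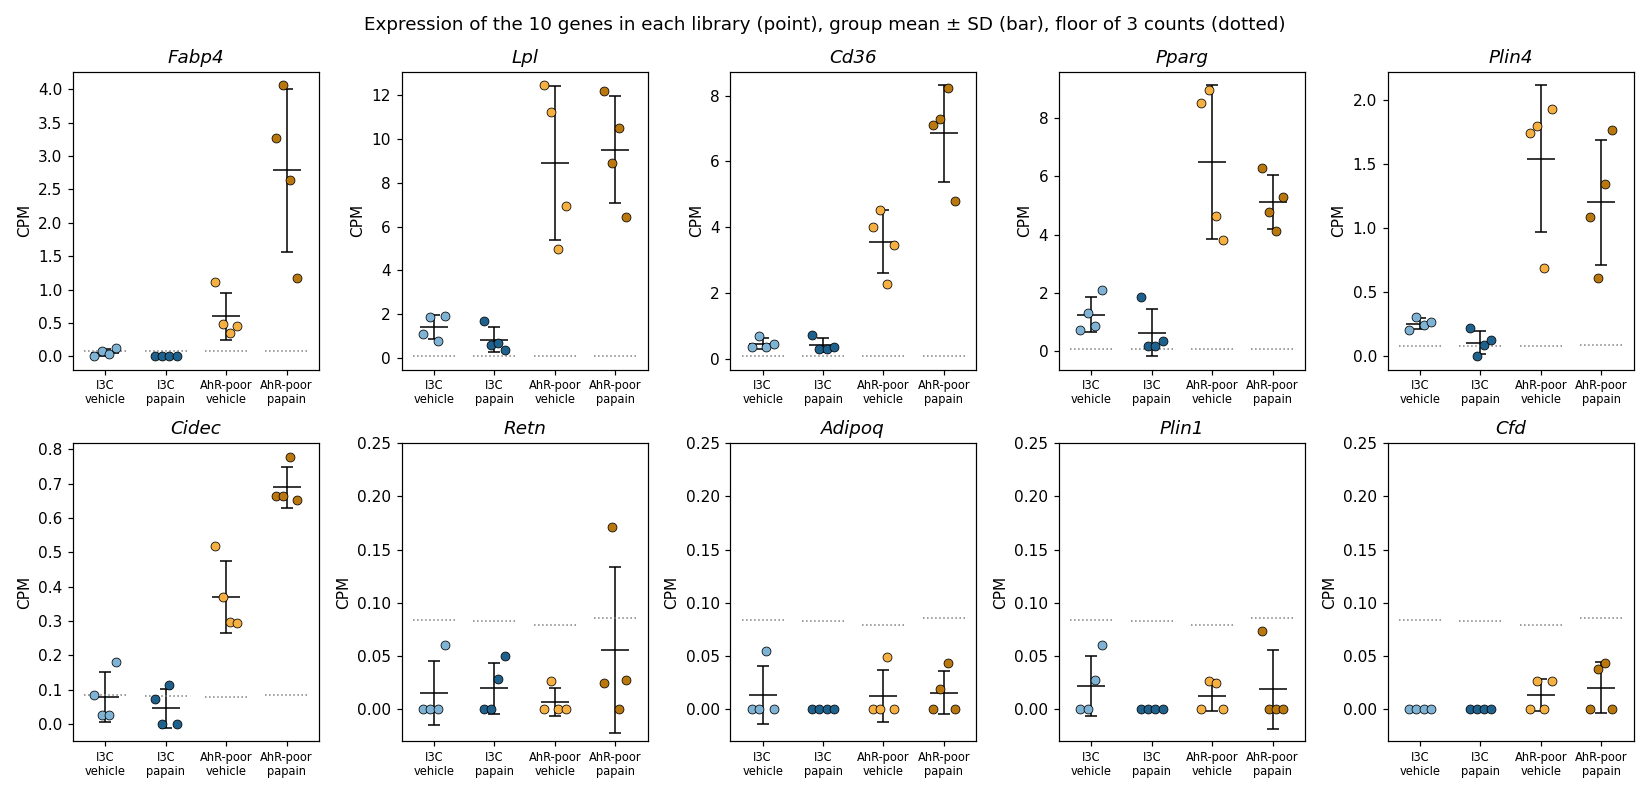
Expression of the 10 genes in CPM (linear axis, 1 range for Retn, Adipoq, Plin1 and Cfd and an own range in each other panel) in the 4 libraries of each group, with the group mean and SD as a bar and the floor of 3 counts as a dotted line. Fabp4, Lpl, Cd36, Pparg, Plin4 and Cidec are higher on the AhR-poor diet without overlap, and Adipoq, Plin1 and Cfd stay at or under the floor throughout.

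Fabp4 encodes a cytosolic carrier of fatty acids. In CPM it was at 0, 0.0765, 0.0272 and 0.120 with vehicle on the I3C diet and at 0 in all 4 libraries with papain on that diet. With vehicle on the AhR-poor diet it was at 1.12, 0.476, 0.346 and 0.456 CPM, and with papain at 3.27, 4.06, 2.64 and 1.17 CPM. No AhR-poor library overlapped the I3C libraries, and the papain libraries of the AhR-poor diet lay above all vehicle libraries of that diet. The fold of the means between the diets was 10.7 with vehicle. Its I3C mean, 0.0559 CPM, lay under the mean floor of that group, 0.0836 CPM. With papain the AhR-poor mean was at least 33.8-fold higher, a bound against the floor per library. Papain against vehicle on the AhR-poor diet gave 4.65-fold. These values chose the gene or share libraries with those that did, and support nothing further. Leaving out single libraries or changing the scaling moved them to between 7.36 and 11.98, between 28.3 and 40.4, and between 3.94 and 6.57. The 7.36 came without T111, where all remaining I3C vehicle libraries held 3 counts or fewer. It is therefore a lower bound against the floor and not a smaller fold of the means.

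Another gene of the same family was read on its own, and no test compared it with Fabp4. Fabp5, the carrier typical of keratinocytes, was at 525.9 ± 111.2 CPM with vehicle and 1942 ± 252 CPM with papain on the I3C diet (SD, n = 4), and at 591.9 ± 108.6 and 1388 ± 221 CPM on the AhR-poor diet. It rose after papain on both diets, in log2 units by 1.88 ± 0.17 with I3C and by 1.23 ± 0.16 without it (± standard error, with edgeR adjusted p = 2.05e-07 and 2.34e-05). Between the diets Fabp5 did not pass, at 0.17 with vehicle and -0.49 with papain (edgeR adjusted p = 0.766 and 0.0438). The 4 papain libraries of the I3C diet, in which Fabp4 had no count, held 64221 to 82469 counts of Fabp5. Of 9 other members of this family, 5 were tested, and among them Fabp5 was the only one called in the 4 pairwise comparisons. Fabp1, Fabp2, Pmp2 and Fabp9 had at most 3 counts in every library.

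For the other genes, 1 model in edgeR with a mean for each group was fitted to the 22155 genes with at least 10 counts. Calls needed a p below 0.01 after Benjamini-Hochberg adjustment over all of these genes, and a log2 fold change beyond 1. Of the 9 members besides Fabp4, 6 entered the test. These had to have counts somewhere, so a gene high in 1 group was favoured by that filter. The two-sided exact permutation test of 4 libraries against 4 cannot go below 0.0286, the value it gives where groups do not overlap. In bulk libraries, fewer cells of a type and less RNA per cell cannot be told apart.

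Lpl and Cd36 serve uptake. Lpl encodes lipoprotein lipase, which splits triglyceride on the capillary wall and in tissue. It was at 1.09, 1.86, 0.789 and 1.92 CPM with vehicle and 1.68, 0.609, 0.685 and 0.373 CPM with papain on the I3C diet. On the AhR-poor diet it was at 12.4, 11.2, 4.97 and 6.95 CPM with vehicle and 12.2, 8.90, 10.5 and 6.44 CPM with papain. Every AhR-poor library lay above every I3C library, while the vehicle and papain ranges overlapped on each diet. Lpl was higher on the AhR-poor diet by 2.65 on the log2 scale with vehicle (standard error 0.41, edgeR adjusted p = 0.00145) and by 3.48 with papain (standard error 0.43, adjusted p = 4.17e-05), or 4.11 without T106. The papain response was 0.10 on the AhR-poor diet, with a 95% interval from -0.63 to 0.82, and -0.74 on the I3C diet, from -1.62 to 0.15. The latter was -1.37 without T106 (edgeR adjusted p = 0.0222).

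Cd36 encodes a membrane receptor that binds long-chain fatty acids and oxidised lipoproteins. On the I3C diet it was at 0.373, 0.688, 0.354 and 0.450 CPM with vehicle and 0.731, 0.289, 0.314 and 0.348 CPM with papain. On the AhR-poor diet it was at 4.005, 4.53, 2.27 and 3.46 CPM with vehicle and 7.12, 7.28, 8.22 and 4.79 CPM with papain. The papain libraries of the AhR-poor diet, with 176 to 384 counts, stood clear of the I3C libraries, with 9 to 30 counts, and also of their own vehicle libraries, with 92 to 171. The diet difference was 2.92 with vehicle (standard error 0.30, edgeR adjusted p = 3.99e-05) and 3.99 with papain (standard error 0.31, adjusted p = 1.58e-07). The papain response of Cd36 on the AhR-poor diet was 0.94 in log2 units (standard error 0.26, edgeR adjusted p = 0.00775), past the p threshold and short of the fold threshold. Without T101 (1.07, edgeR adjusted p = 0.00757) or without T112 (1.08, edgeR adjusted p = 0.00345) it passed both. Its papain response with I3C was -0.13, with a 95% interval from -0.82 to 0.55. The difference between the responses, the interaction, was 1.07 (standard error 0.43), with an unadjusted p of 0.0231 and an edgeR adjusted p of 0.299.

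Pparg encodes PPARγ. On the I3C diet it was at 0.747, 1.33, 0.871 and 2.10 CPM with vehicle and 1.85, 0.192, 0.171 and 0.348 CPM with papain. On the AhR-poor diet it was at 8.50, 8.97, 4.65 and 3.81 CPM with vehicle and 6.28, 4.76, 4.11 and 5.30 CPM with papain. The diets did not overlap under either treatment, and 1 of the I3C papain libraries, T106, stood with the vehicle libraries of its diet. With papain Pparg was higher on the AhR-poor diet by 2.94 (standard error 0.59, edgeR adjusted p = 0.00248), a call lost without T115 (2.73, adjusted p = 0.0131) and in a fit of the 8 libraries compared (adjusted p = 0.0154). Without T106 it was 4.39 (edgeR adjusted p = 4.37e-06). With vehicle the difference was 2.36 (standard error 0.55) and its adjusted p of 0.0292 did not pass, with a 95% interval from 1.28 to 3.45. It passed without T106 (adjusted p = 3.89e-04), in a fit of the 8 libraries compared (adjusted p = 0.00321) and in DESeq2 (adjusted p = 0.00588). The papain response on the AhR-poor diet was -0.34 (adjusted p = 0.664), with a 95% interval from -1.33 to 0.66. The papain response on the I3C diet was -0.92 (adjusted p = 0.275), but without T106 it was -2.37 (edgeR adjusted p = 7.29e-04) and passed.

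Among the droplet genes Plin1 was at the floor, and Plin4 and Cidec were measured. Plin4 encodes perilipin 4, which coats nascent droplets. It was at 0.201, 0.306, 0.245 and 0.270 CPM with vehicle and 0.219, 0, 0.0856 and 0.124 CPM with papain on the I3C diet, and at 1.74, 1.80, 0.692 and 1.93 CPM with vehicle and 1.08, 0.607, 1.34 and 1.77 CPM with papain on the AhR-poor diet. No AhR-poor library fell into the I3C range, and T102 and T105 were the lowest of their groups. The diet difference was 2.57 with vehicle (standard error 0.45, edgeR adjusted p = 0.00190) and 3.35 with papain (standard error 0.51, adjusted p = 1.01e-04), or 3.95 without T106. The vehicle call was lost without T108 (adjusted p = 0.0108) or T110 (adjusted p = 0.0103), at 2.47 and 2.54. Papain gave -0.38 on the AhR-poor diet, with a 95% interval from -1.13 to 0.37. On the I3C diet papain gave -1.15, from -2.30 to -0.01, or -1.75 without T106 (edgeR adjusted p = 0.0493). The normal interval around -1.15 left out 0, but the edgeR F test did not pass (unadjusted p = 0.0627, adjusted p = 0.138).

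Cidec encodes a protein that fuses droplets. Its counts were low on the I3C diet, at 3, 1, 1 and 6 with vehicle and 3, 0, 4 and 0 with papain. On the AhR-poor diet they were 19, 14, 12 and 11 with vehicle and 27, 35, 18 and 24 with papain, or 0.370 ± 0.105 and 0.690 ± 0.0595 CPM (SD, n = 4). With papain the diet difference was 3.76 (standard error 0.58, edgeR adjusted p = 1.26e-04), and 4.54 without T114. With vehicle it was 2.21 (standard error 0.57, adjusted p = 0.0364), did not pass, and had a 95% interval from 1.10 to 3.32, while DESeq2 called it (adjusted p = 0.00399). Without T111 it was 2.94 (edgeR adjusted p = 0.015). After papain on the AhR-poor diet the 4 libraries all exceeded the 4 with vehicle (exact permutation p = 0.0286), at a log2 fold change of 0.89 that did not pass (standard error 0.43, edgeR adjusted p = 0.128). With I3C the response was -0.67, with an interval from -2.18 to 0.85, and it was 0.066 without T111 and -1.44 without T114.

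**Figure D2:**
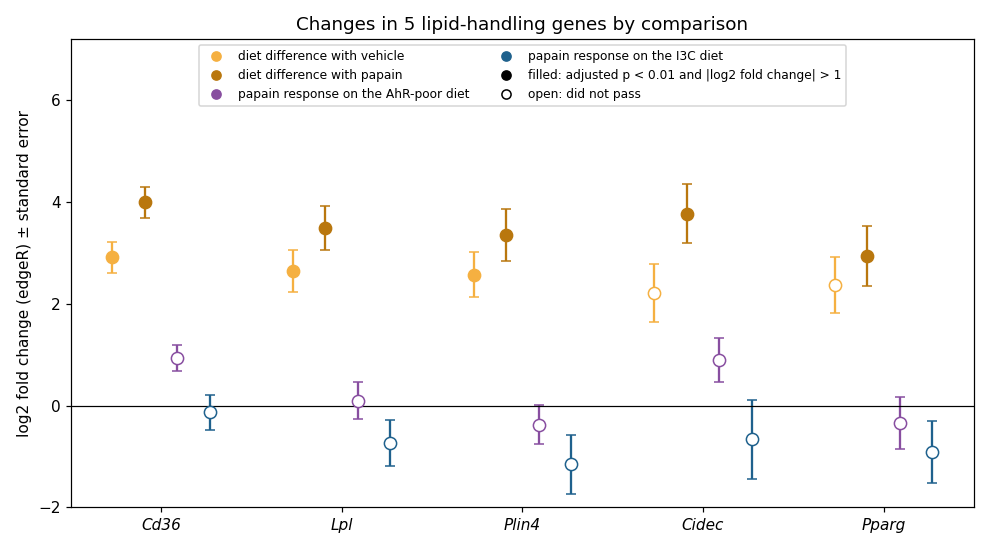
Log2 fold changes from edgeR with their standard errors for Cd36, Lpl, Plin4, Cidec and Pparg in the 4 pairwise comparisons, filled where the adjusted p was below 0.01 and the log2 fold change beyond 1. The diet differences lie between 2.21 and 3.99, and the papain responses between -1.15 and 0.94 with no filled point.

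Counted over the 6 members tested, 3 (Lpl, Cd36 and Plin4) were higher without I3C under vehicle, beside 1.59% of all genes tested. With papain 5 were higher, beside 7.15% of all genes, and Retn was the one that was not. In both treatments the AhR-poor libraries lay above the I3C libraries in 5 of the 6, where 6.45% of all genes did so with vehicle and 12.5% with papain. The median log2 fold change of the 6 was 2.47 with vehicle and 3.42 with papain, and that of all genes tested was -0.01 and 0.01. DESeq2 called 5 of the 6 in both. After papain on the AhR-poor diet edgeR called 0 of the 6 in either direction, where 6.04% of all genes were higher and 2.42% lower, and 2 of them, Cd36 and Retn, had an unadjusted p below 0.05. Retn held 11 of its 17 counts in this papain group and passed the minimum mostly through it, so its p is not read. Cd36 and Cidec were the ones without overlap in this comparison, beside 17% of all genes. After papain with I3C 0 of the 6 were called, beside 3.69% higher and 5.29% lower, and 0 had an unadjusted p below 0.05. In the interaction 0 were called, where 0.0181% of all genes were higher, and Cd36 alone had an unadjusted p below 0.05. DESeq2 also called 0 in these 3 comparisons. Retn did not pass in any comparison, and its highest value, 0.171 CPM in T105, left the other 3 libraries of its group at 0 to 0.0272 CPM.

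Levels were compared between members per kb of transcript. With vehicle on the AhR-poor diet the order was Pparg at 3.05 ± 1.24 CPM per kb, Lpl at 2.16 ± 0.856, Cd36 at 1.05 ± 0.284, Fabp4 at 0.668 ± 0.391, Plin4 at 0.268 ± 0.0993 and Cidec at 0.215 ± 0.0608 (SD, n = 4). Neighbours in this order overlapped in range, except Fabp4 and Plin4. With papain on the AhR-poor diet Fabp4 came first at 3.11 ± 1.37 CPM per kb, followed by Pparg at 2.41 ± 0.431, Lpl at 2.31 ± 0.595 and Cd36 at 2.02 ± 0.430, whose ranges overlapped from each to the next. Cidec at 0.401 ± 0.0346 and Plin4 at 0.208 ± 0.0844 were lower than these without overlap. On the I3C diet the means of Pparg, Lpl and Cd36 led in the same order in both treatments, with ranges that overlapped from each to the next. With papain the place of Pparg rested on T106, at 0.871 CPM per kb against 0.0806 to 0.164 in T113, T114 and T115. Fabp4 came next after Cd36 with vehicle, from 0 to 4 counts in a library, and its range overlapped those of Cd36, Cidec and Plin4. With papain Fabp4 was last of 7, at 0 counts.

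**Figure D3:**
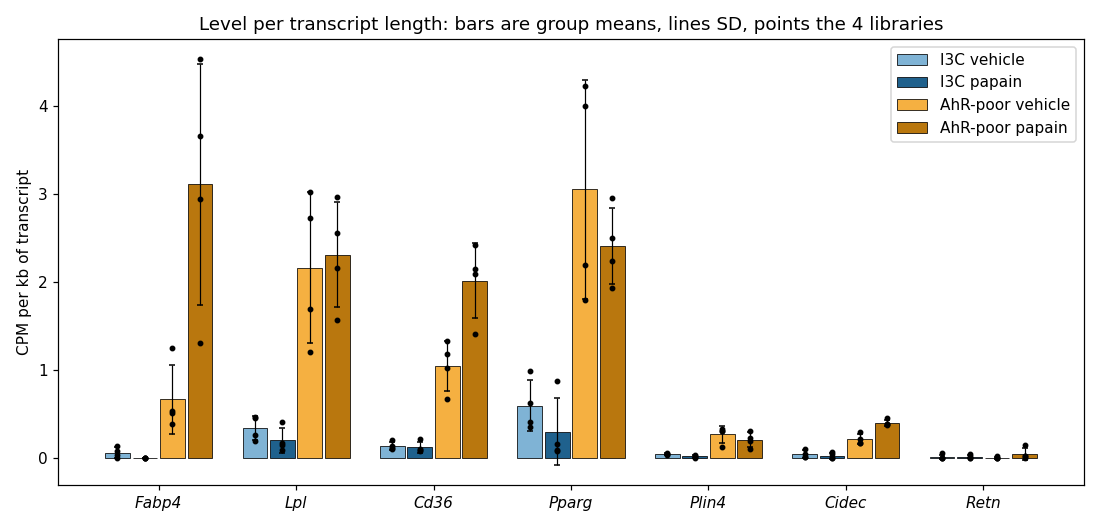
Level per kb of transcript for the 7 members that passed the minimum of 10 counts, as group means (bars from 0), SD (lines) and the 4 libraries (points). Fabp4 is highest with papain on the AhR-poor diet, while Lpl, Pparg and Plin4 stand at similar heights in both AhR-poor groups.

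Within groups the members did not all vary together. Over the deviations of the 16 libraries from their group means, Pearson's r was 0.84 between Lpl and Cd36, 0.73 between Lpl and Pparg and 0.72 between Pparg and Cd36. For Fabp4 it was 0.50 with Lpl, 0.42 with Cd36, 0.29 with Pparg, 0.12 with Cidec and -0.05 with Plin4. These are descriptions over 16 libraries that share their group means and depth. Likeness of whole profiles was taken on log2 CPM with the group means left in. The diet difference that chose Fabp4 therefore enters its r. The profile most like that of Fabp4 over the 16 libraries, among 13026 other genes with at least 1 CPM, belonged to Dpt, Cma1 and Pecam1, with r of 0.97, 0.97 and 0.96. Dpt encodes dermatopontin of the dermal matrix, Cma1 a mast cell chymase and Pecam1 an adhesion molecule of endothelium. The profile most like that of Lpl belonged to Clstn3, Plin2 and Far2, with r of 0.98, 0.98 and 0.97. Plin2 coats droplets in most cell types, and Far2 makes fatty alcohols for the wax esters of sebum. In all, 158 genes exceeded an r of 0.9 with Fabp4 and 184 with Lpl, so that neither list is particular to its gene.

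Markers of other cells were counted over whole lists. The counts of calls here and in the lists below are to be read beside the shares of all genes tested. Between the diets 1.59% were called higher on the AhR-poor diet with vehicle and 7.15% with papain. After papain 6.04% rose and 2.42% fell on the AhR-poor diet, and 3.69% rose and 5.29% fell on the I3C diet. Among 7 sebaceous gland markers 5 were higher in AhR-poor libraries under either treatment, and 0 were called after papain on either diet. Far2 was higher by 3.05 (standard error 0.49) with vehicle and 3.74 with papain (4.42 without T106), Elovl3, an elongase of very long-chain fatty acids, by 2.78 and 3.83, and Awat1 and Awat2, which esterify wax alcohols, by 2.10 and 1.51 with vehicle. Krt79 and Acsbg1 hold most of the summed level and were not called. The sum of the 7 ran from 683.957 to 826.407 CPM with vehicle and 570.23 to 803.35 with papain on the I3C diet, and from 1093.69 to 1331.95 and 967.908 to 1309.87 on the AhR-poor diet. T106, the I3C papain library that was high for Lpl, Cd36 and Pparg, also had the highest sum of its group. The same library was highest of its group for the fibroblast list (13.5 CPM), the macrophage list (44.6), the erythroid list (16.7) and the Langerhans cell list (549.1). It was also highest for skeletal muscle (6.26). For the endothelial (5.04 CPM against 5.11 in T114), neutrophil (34.8 against 38.2 in T113) and eccrine lists it was not highest. For the mural (250.8 CPM), Schwann cell (71.2) and fat cell progenitor (397) lists T106 was the lowest of its group. The vehicle count of 5 became 3 without T109, T110 or T100, and the call of Far2 was lost without those and without T108 (adjusted p of up to 0.0171 over these). Their part in the values of the members was not tested.

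All 12 dermal fibroblast markers were higher without I3C under vehicle, at a median log2 fold change of 4.12, and all 12 under papain, at 6.57. The vehicle count was 8 to 12 without single libraries, 8 without T108, T109, T110, T111 or T100. After papain 11 of the 12 rose on the AhR-poor diet, while on the I3C diet 0 rose and 1, Dcn, fell by 1.73. That count of 1 was 0 without any one of T101, T103, T104, T108, T109, T111, T113, T114 or T115 and 2 without T106 or T112. Their sum per library ran from 2.77 to 16.1 CPM over the 8 I3C libraries, from 116 to 208 CPM with vehicle on the AhR-poor diet and from 304 to 782 CPM with papain. Of 12 endothelial markers the AhR-poor libraries were higher in 11 with vehicle and 12 with papain, and 3 rose after papain on that diet (5 without T100) and 1 on the I3C diet. Their sums ran from 1.35 to 5.11 CPM on the I3C diet and from 19.0 to 52.3 and 37.6 to 86.9 CPM on the AhR-poor diet. Of 9 monocyte and macrophage markers 4 were higher with vehicle, a count that became 2 without any one of T100, T101, T102, T103, T107, T108, T109, T110, T111 or T113, and 9 with papain. On the AhR-poor diet 7 of these 9 rose after papain, to a sum of 125 to 544 CPM from 52.8 to 63.9. Across the same step Fabp4 stood at 0.599 ± 0.350 with vehicle and 2.79 ± 1.22 CPM with papain in mean. Cd36 stood at 3.57 ± 0.965 and 6.85 ± 1.46 CPM and Cidec at 0.370 ± 0.105 and 0.690 ± 0.0595, also without overlap, whereas Lpl stood at 8.90 ± 3.52 and 9.51 ± 2.45 CPM and Plin4 at 1.54 ± 0.572 and 1.20 ± 0.486 (SD, n = 4). Of 8 neutrophil markers edgeR called 0 between the diets under vehicle, where 4 had an unadjusted p below 0.05, and 4 under papain, and 6 rose after papain without I3C and 2 with it. Their sum ran from 1.29 to 3.84 CPM with vehicle and 31.8 to 38.2 with papain on the I3C diet, and from 7.76 to 8.88 and 56.8 to 294 CPM on the AhR-poor diet. Of the 9 macrophage markers 2 rose after papain with I3C. The sum of 5 Langerhans cell markers ran from 237 to 415 and from 291 to 549 CPM with I3C and from 572 to 646 and from 651 to 799.7 CPM without it, in vehicle and papain libraries in turn. Of these 5 edgeR called 0 between the diets under vehicle, where 4 had an unadjusted p below 0.05, and 1 under papain, a count that was 0 without T113, T114, T104, T105 or T107, 2 without T108 or T111 and 4 without T106. Of 5 skeletal muscle markers tested edgeR called 0 between the diets under vehicle, where all 5 had an unadjusted p below 0.05, and 3 under papain, at medians of 3.11 and 5.47. The 4 erythroid genes were higher without I3C under both treatments, and 3 of them rose after papain there. The vehicle count of 4 was 0 without T108 or T109, 1 without T100, T110 or T111 and 2 without T102, and the count of 3 was 0 without T100, T101, T103, T105 or T107 and 1 without T102. Of 6 markers of fat cell progenitors 3 were higher without I3C under either treatment (1 under vehicle without T108 or T111), and 3 rose after papain without I3C and 1 with it. Their sum ran from 124 to 162 CPM with I3C and from 107.2 to 142 without it under vehicle, and from 397 to 478 and from 383 to 445 CPM under papain, overlapping between the diets. Mural, eccrine and Schwann cell markers had 0 calls between the diets under vehicle among 8, 5 and 5 tested. At an unadjusted p below 0.05 stood 2, 1 and 1 of them. Under papain 4, 1 and 1 were called, all higher without I3C, with a mural median log2 fold change of 1.54. The mural count of 4 was 2 without T113, T114 or T115, and the Schwann cell count of 1 was 0 without T104, T113 or T115 and 2 without T106. Unlike the mural calls, the mural sum with papain was lower without I3C, at 144 to 199 CPM against 251 to 305 CPM with it. The basal and suprabasal keratinocyte markers had 0 edgeR calls among 12 genes in the 4 pairwise comparisons. Of the 6 basal genes 4 had an unadjusted p below 0.05 between the diets under papain, at a median log2 fold change of -0.40. Under vehicle 2 did so, at a median of -0.26. Of the 6 suprabasal genes 1 did so under either treatment. The part of fibroblasts, endothelium, blood cells or macrophages in the values of Fabp4 and the other members was not tested.

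**Figure D4:**
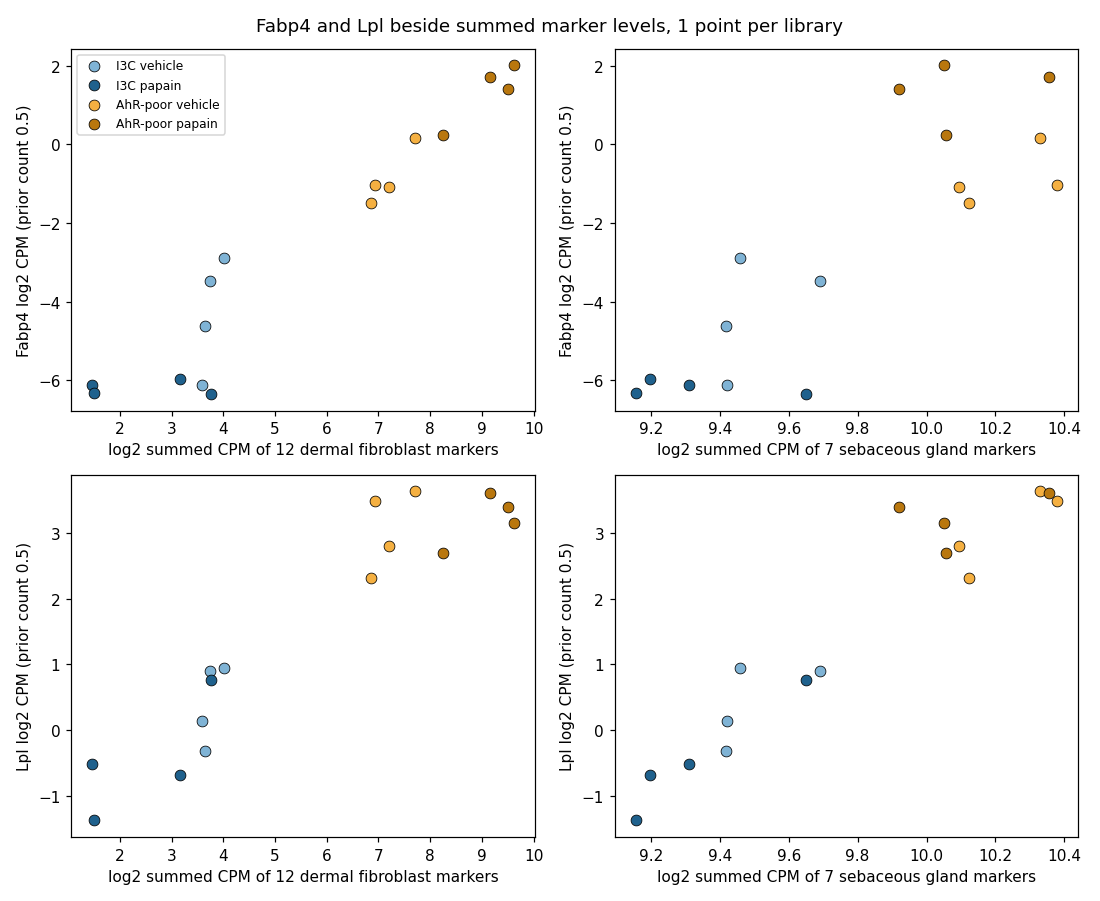
Fabp4 (upper row) and Lpl (lower row) in log2 CPM against the log2 summed CPM of 12 dermal fibroblast markers (left) and 7 sebaceous gland markers (right), with 1 point per library and the colour giving the group. With papain on the AhR-poor diet the fibroblast sum and Fabp4 are both above their vehicle values, while Lpl is not.

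**Figure D5:**
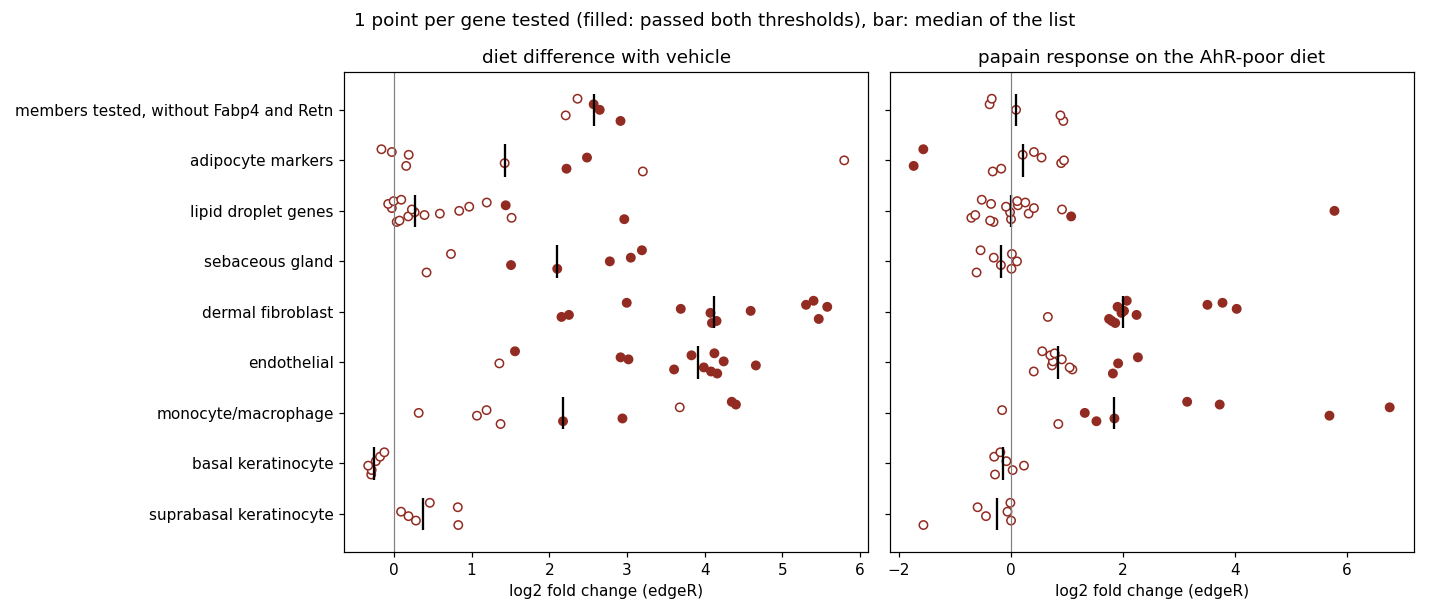
Log2 fold changes of 5 members and of the genes tested in 8 lists for the diet difference with vehicle (left) and the papain response on the AhR-poor diet (right), filled where both thresholds were passed, with the median of each list as a bar. The sebaceous gland list is filled on the left only (5 of 7), and the fibroblast list on both sides (12 and 11 of 12).

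Other genes of the droplet and of lipolysis were read from a list of 17, all tested. With vehicle 2 were higher on the AhR-poor diet, Plin2 by 1.44 and Cidea, a droplet protein of brown fat and sebaceous cells, by 2.97 (standard errors 0.24 and 0.40). With papain 4 were higher, Plin2 by 2.10, Cidea by 2.84, Hilpda, an inhibitor of lipolysis induced by hypoxia, by 1.18 and G0s2 by 5.87 (7.03 without T106). Plin2 was at 35.1 ± 7.89 CPM with vehicle and 24.2 ± 4.98 CPM with papain on the I3C diet and at 95.04 ± 35.15 and 103.95 ± 16.02 CPM on the AhR-poor diet (SD, n = 4). G0s2, another inhibitor of the first lipase of lipolysis, rose after papain on the AhR-poor diet by 5.78 (standard error 0.67, edgeR adjusted p = 1.41e-05), from 0.337 ± 0.179 to 18.8 ± 12.2 CPM. Dgat1, which makes triglyceride, rose there by 1.08, or by 0.97 without T105, which ended its call. With I3C, 0 of the 17 were called after papain. The vehicle count of 2 became 1 without T108, T109, T110 or T101. The median of the list was 0.27 and 0.67 between the diets, beside -0.01 and 0.01 over all genes.

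Of the 12 further fat cell markers 9 were tested. Gpd1, which makes glycerol phosphate for triglyceride, was higher on the AhR-poor diet by 2.48 with vehicle (standard error 0.39, edgeR adjusted p = 0.00108) and by 3.44 with papain. Adig, or adipogenin, was higher by 2.22 and 2.57, and its vehicle call was lost without T108, T109, T110 or T100 (adjusted p of up to 0.0157), which left 1 of the list called. Car3 was at least 13.6-fold higher with papain, a call lost in a fit of the 8 libraries compared (edgeR adjusted p = 0.0215). Lep, the gene of leptin, held at most 20 counts in a library and was not called in any of these comparisons, and Lipe, the hormone-sensitive lipase, was at 6.39 ± 0.517 CPM on the AhR-poor and 6.52 ± 1.21 CPM on the I3C diet with vehicle (SD, n = 4). After papain Slc2a4, the insulin-regulated glucose transporter, fell by 1.56 on the AhR-poor diet and by 1.97 on the I3C diet, and Adrb3, a beta-adrenergic receptor, fell by 1.73 and 1.79. Aqp7, a glycerol channel, rose by 2.83 after papain on the I3C diet.

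Among 12 partners of lipoprotein lipase and lipoprotein receptors, 9 were tested and 0 were called between the diets with vehicle. With papain 1 was called, Gpihbp1, which carries the lipase to the capillary wall and was at least 4.06-fold higher without I3C. Angptl4, an inhibitor of the lipase, rose after papain on the AhR-poor diet by 1.17 (standard error 0.29, edgeR adjusted p = 0.00557), a call lost without any one of T101, T102, T103, T104, T105 or T107 (adjusted p of up to 0.0227), and Vldlr fell by 1.04, or by 0.97 without T101, which ended its call. Of 15 genes of fatty acid transport and activation, edgeR called 0 between the diets under either treatment, with 4 at an unadjusted p below 0.05 under vehicle and 9 under papain. Slc27a3, a fatty acid transport protein and the 1 gene of this list that rose on the AhR-poor diet (2 without T100), rose after papain by 1.33 on the AhR-poor diet and by 1.499 with I3C, and Scarb1, a lipoprotein receptor, rose by 1.27 with I3C.

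Of 17 nuclear receptors and factors of fat cell formation 16 were tested, and 3, Ebf1, Ebf2 and Zfp423, were higher without I3C under either treatment (1 with vehicle without T108, T110, T111 or T100). Ebf1, an early factor of fat cell and B cell formation, was at least 10.9-fold higher with vehicle and at least 29.9-fold with papain. Zfp423, a factor of fat cell progenitors, was at least 5.26-fold higher with vehicle. With papain Zfp423 was higher by 3.27 in log2 units. Ppara, Klf15 and Ppargc1a fell after papain on both diets, in log2 units by 1.24, 1.33 and 2.44 without I3C and by 1.75, 1.90 and 2.05 with it, and Ebf1 and Zfp423 rose by 1.44 and 1.64 without I3C. The count of 2 that rose became 0 without T101, T102 or T105 and 1 without T103, T104 or T107. Of 14 other adipokine genes and receptors 12 were tested, with 2 higher without I3C under vehicle, Lepr and Rarres2, and 5 under papain. Rarres2, the gene of chemerin, was at least 6.21-fold higher with vehicle, and higher by 4.75 in log2 units with papain (5.39 without T106). The vehicle count of 2 fell to 0 without T108 or T110 and to 1 without T100, T101, T104, T107, T109 or T111. Retnlg, a resistin-like gene of neutrophils, rose by 4.68 after papain on the AhR-poor diet, and Cdh13, an adiponectin receptor, fell by 1.17 there and by 1.65 on the I3C diet. C3, the substrate of the alternative complement pathway in which adipsin acts, was higher without I3C by 3.53 under vehicle and 5.59 under papain (6.40 without T106), while Cfd itself stayed at or under 2 counts in every library.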

How the data were processed

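RNA from footpad epidermal cells, split off with dispase and freed of dead cells, was made into strand-marking TruSeq libraries and read as 100-nt pairs in 3 sequencing units, with no label saying which library ran in which unit. The authors deposited a table of raw read counts for 50600 genes in 16 libraries, with reads aligned to mm10 by STAR. The counting tool, annotation and strand setting are not given in the sources used here. Symbols from GENCODE M21 matched 50376 identifiers and 224 had none. The table held 0 columns of other samples.

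The members and all lists of genes were chosen with earlier results of these data known. Genes with at least 10 counts over the libraries (22155) were fitted in edgeR 4.0.16 (R 4.3.3) with TMM factors, 1 mean per group over all 16 libraries and the robust quasi-likelihood F test. Calls needed a log2 fold change beyond 1 and an adjusted p below 0.01. The test was tried on simulated counts first. Folds against a group at 3 counts or fewer per library are bounds. Intervals are 95% normal intervals from the standard errors. Transcript length is that of the longest protein-coding transcript. DESeq2 1.42.0 was an alternative, beside other filters, scalings and thresholds, and each library was left out in turn. All 10 members are named. From each list at most 4 called genes per comparison, the most abundant ones, and at most 3 abundant uncalled genes are named, with marker genes at the floor.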

Additional observations from a re-analysis of the deposited data

Results flagged for a closer look

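In 6 of 24 sets of 4 libraries tested, 1 library stood apart from the other 3 by more than 0.829 of the range (Dixon's 95% value), which chance gives in about 5% of sets. Fabp4 was at 1.12 CPM in T100 with vehicle on the AhR-poor diet, where the others lay at 0.346 to 0.476. Plin4 was at 0.692 CPM in T102 of the same group, below 1.74 to 1.93. Cidec was at 0.779 CPM in T107 with papain on the AhR-poor diet, against 0.653 to 0.665, from 18 counts in T107 and 24 to 35 in the others. Retn was at 0.171 CPM in T105 of that group, from 9 counts. With papain on the I3C diet, T106 was apart for Pparg, at 1.85 CPM against 0.171 to 0.348, and for Cd36, at 0.731 CPM against 0.289 to 0.348.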

How the results depend on the processing

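No paired analysis was possible because the library codes are not shared between groups. With vehicle, 3 members were called higher on the AhR-poor diet, 5 with DESeq2, 5 at an adjusted p below 0.05, and 1 with at least 10 counts in every library, a filter that only Lpl passed, and 2 to 4 when single libraries were left out. With papain the count was 5, 1 under that filter and 4 to 5 without single libraries. After papain on the AhR-poor diet 0 were called higher, 1 with no minimum fold change and 0 to 1 without single libraries. After papain on the I3C diet 0 were called lower and 0 to 1 without single libraries. In the interaction, and in the other direction of each comparison, the count was 0 under every alternative run. Signs turned in 4 of 2199 alternatives for single genes, all for differences that did not pass. Without T102 or T104 the papain response of Lpl on the AhR-poor diet was -0.089 or -0.048, over a range of -0.089 to 0.31. Without T111 that of Cidec on the I3C diet was 0.066, over -1.44 to 0.066, and without T109 that of Cd36 was 0.12, over -0.56 to 0.12. A call was lost in 54 alternatives and gained in 10, and the cause was not tested. Scaling by library size alone moved the median of all genes by 0.10 between the diets with papain. Adipoq, Plin1, Cfd and Retn were too shallow for their own folds to be read, though the fitted folds of Retn enter the medians over the 6 members tested.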
